A study of Mus musculus with 40 samples.

Results

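Whole blood of 6 mice given spermine and then pristane, bled on day 4, was compared with whole blood of 3 mice in which pristane disease had not been induced. These 9 libraries were taken by their labels from the 40 of the series. All 9 mice were labelled Ifnar1+/+, and the series describes its animals as females of 7 weeks. The treated mice received spermine for 3 days before the pristane injection. The labels give the uninduced mice no pretreatment, so spermine, pristane and the handling that went with them cannot be told apart in this comparison. A further 6 Ifnar1+/+ mice given PBS for 3 days in place of spermine and bled on day 4 of pristane, and 6 spermine mice bled on day 6, served to place the result. Blood was drawn from the venous plexus behind the eye and poly-A RNA was sequenced from whole blood, with no cell sorting named. The labels do not say whether the mice of a group shared a cage, a litter or a day, so the p-values measure only the spread between animals. In the gene tests that spread was estimated over all 8 groups of the series.

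Pristane is a hydrocarbon oil that causes chronic inflammation and a lupus-like disease in mice, and type I interferon made by inflammatory monocytes is a known part of that disease. The type I interferon receptor is formed by Ifnar1 and Ifnar2. It signals through the kinases Jak1 and Tyk2 to STAT factors, which with Irf9 bind GAAA-rich elements in front of interferon-stimulated genes. Spermine is a polyamine that all cells make from ornithine by way of putrescine and spermidine. Whole blood mRNA is a mixture in which reticulocytes, young red cells that still carry RNA, neutrophils, monocytes, lymphocytes and platelets each leave their own transcripts.

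One library went against its label. Uninduced mouse 2 had no read of Xist, the RNA of the inactive X chromosome, and 862 reads of 4 Y-linked genes, whereas the other 39 libraries of the series had 488 to 9774 Xist reads and no Y-linked read. It is called uninduced mouse 2 throughout, and the main results are given with and without it. The 6 spermine libraries held 10379316 to 12735233 recovered reads and the 3 uninduced ones 9156431 to 10376103 (p = 0.0357, exact permutation, two-sided, where 6 against 3 mice can reach no less than 0.0119). Hemoglobin transcripts took 26.5 to 48.3 percent of reads (median 42.4) in the spermine mice and 44.1, 58.7 and 52.5 percent in the uninduced mice (p = 0.0952, exact permutation). Because the deposited values were scaled between libraries, 1 read of a 2 kb gene was worth 0.0189 to 0.0362 FPKM in the spermine mice and 0.0371 to 0.0714 FPKM in the uninduced mice, so low values were less precise in the latter. Spermine mouse 2 stood apart from its group. Its correlation with the other spermine mice across genes was 0.899 to 0.938, against 0.956 to 0.978 among the other pairs, and its ribosomal protein, oxidative phosphorylation and proteasome transcripts were the highest of the 6. Uninduced mouse 3 had the lowest mitochondrial share of the 9 (1.07 percent of non-hemoglobin reads, against 1.44 to 2.53 in the spermine mice). As a check on tissue, 14 genes of solid tissues such as liver, skin and muscle were listed, and only 4 of them passed the filter on low values.

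**Figure D1:**
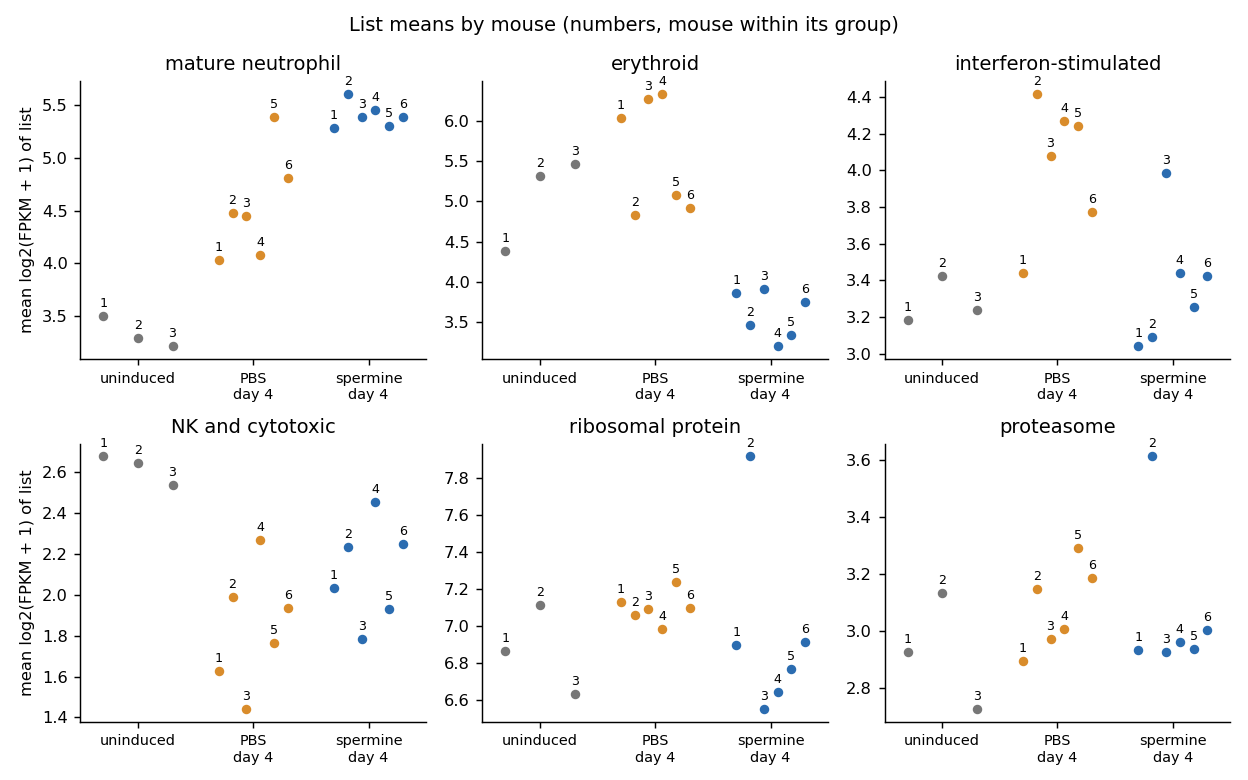
Mean log2(FPKM + 1) over the tested members of 6 gene lists (y axes) in each uninduced, PBS day 4 and spermine day 4 mouse; each point is 1 mouse, numbered within its group. The mature neutrophil points of the 6 spermine mice lie between 5.28 and 5.61, above the uninduced mice at 3.50, 3.29 and 3.21, and their erythroid points lie below all 3 uninduced mice; spermine mouse 2 is the high point in the ribosomal protein and proteasome panels.

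Against uninduced blood, spermine-treated blood on day 4 of pristane held more transcripts of neutrophils and fewer transcripts of maturing red cells. Part of a list of inflammatory monocyte genes, some shared with neutrophils, was higher as well. Among 11829 genes with at least 1 FPKM in at least 3 libraries, 647 were higher (5.47 percent) and 372 lower (3.14 percent), together 8.61 percent, at a Benjamini-Hochberg adjusted p under 0.05 in limma. Without uninduced mouse 2 the counts were 576 (4.87 percent) and 232 (1.96 percent). Without uninduced mouse 3 they were 406 and 111, so the number of lower genes rests to a large part on these 2 animals. Without spermine mouse 2 they were 662 and 373, and when only the groups compared were fitted they were 498 and 418. The 2 groups did not overlap in 858 genes that were higher (7.25 percent) and 698 that were lower (5.9 percent) in the spermine mice. The median log2 difference of all genes was -0.01, and it became 0.28 when libraries were set to a fixed total without hemoglobin and 0.50 when hemoglobin was counted in that total. With those totals the share of higher calls went from 63.5 percent to 81.2 and 93.1 percent.

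The 12 genes with the greatest rise, among those with a mean of 5 FPKM or more in either group, were Ly6g, Lrg1, Lcn2, Wfdc21, S100a9, Wfdc17, S100a8, Ifitm1, Steap4, Retnlg, Ifitm6 and Mmp8, at log2 differences of 2.64 to 3.89. Of the 12 with the greatest fall, the 10 named here are Apol11b, Diaph3, Trim10, Cyp4b1-ps2, Acmsd, Slc4a1, Ctsf, Car2, Kel and Gstm5, at -3.80 to -2.61. In each of the 24 genes of both sets the 6 spermine mice lay wholly outside the range of the 3 uninduced mice, and each was called under all 18 alternative settings. The 24 were chosen as the greatest called changes between these same mice, so both traits follow in part from that choice and are descriptions. Differences are on the log2(FPKM + 1) scale, which understates the change of low genes.

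**Figure D2:**
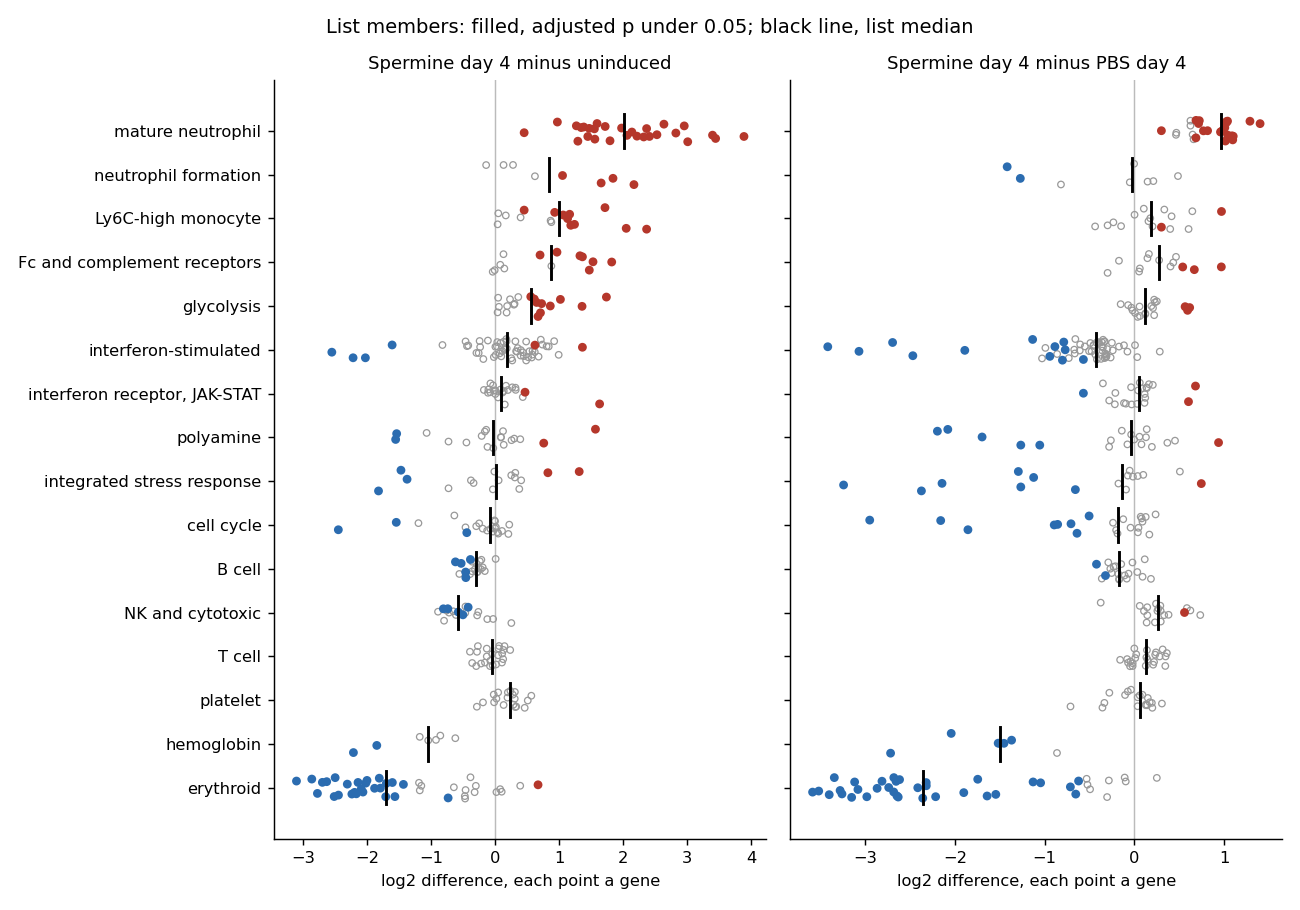
Log2 difference in log2(FPKM + 1) (x axes) of every tested member of 16 gene lists (rows), for spermine day 4 minus uninduced at left and spermine day 4 minus PBS day 4 at right; each point is a gene, filled where the adjusted p was under 0.05 (red higher, blue lower), and black lines are list medians. The mature neutrophil row lies wholly to the right of 0 at left (median 2.02) and most of the erythroid row to the left (median -1.71). Of the 56 interferon-stimulated genes 50 were not called, beside 10810 of all 11829 genes tested.

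Neutrophil transcripts made up the strongest rise. Ly6g, the surface antigen that marks mouse neutrophils (ENSMUSG00000022582, chromosome 15, 75155240 to 75159126, GRCm38), stood at 1.103, 0.152 and 1.2015 FPKM in the 3 uninduced mice and at 14.6 to 30.5 (median 28.2) FPKM in the 6 spermine mice. The groups were far apart, with a log2 difference of 3.89 ± 0.46 (SE, adjusted p = 1.9e-07, n = 6 and 3), or 3.59 without uninduced mouse 2. Lcn2, an iron-scavenging granule protein, went from 4.33, 2.29 and 3.07 FPKM to 35.2 to 52.5 (median 46.6) FPKM (3.45 ± 0.31, adjusted p = 1.38e-09). S100a8 and S100a9 form calprotectin, an abundant protein pair of the neutrophil cytosol. S100a9 was at 284, 258 and 143 FPKM in uninduced blood and at 1239 to 2905 (median 1762) FPKM in spermine-treated blood, a difference of 3.01 ± 0.39, and S100a8 differed by 2.96 ± 0.40. For both, the highest of the spermine mice was mouse 2, and for both the lowest of the uninduced mice was mouse 3.

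All 28 tested genes of the mature neutrophil list rose, against the 5.47 percent of all genes that did, with a median of 2.02. Without uninduced mouse 2 the count was 27, and it was 28 under both fixed totals. The 8 granule and cytosolic antimicrobial proteins had a median of 2.89 and the 13 surface receptors one of 1.56. Cxcr2, the receptor for the chemokines that draw neutrophils out of marrow, was at 17.9, 11.5 and 17.9 FPKM in uninduced and 61.1 to 97.9 (median 68.9) FPKM in spermine mice (2.14 ± 0.20, adjusted p = 4.32e-09). Trem1, a receptor that amplifies inflammatory signalling, rose by 1.59 ± 0.16, and Hdc, the histamine-forming enzyme, by 2.06 ± 0.20. Mmp8, the neutrophil collagenase, rose by 2.64 ± 0.36. Genes of earlier neutrophil stages moved less evenly: of 8 tested, 4 rose, none fell and the median was 0.84, with 2 higher without uninduced mouse 3. Chil3, a chitinase-like granule protein, rose by 2.17 ± 0.39 and Cd177, a surface glycoprotein, by 1.84 ± 0.32. Ngp, a secondary granule protein, rose by 1.66 ± 0.42 (adjusted p = 0.00758, but 0.085 without uninduced mouse 3), and the primary granule protease Prtn3 by 1.06 ± 0.28 (adjusted p = 0.0111, and 0.0805 without that mouse). The secondary granule proteins Camp and Ltf, named here for their later difference from PBS, differed by 0.13 ± 0.35 and 0.62 ± 0.34 (adjusted p = 0.891 and 0.318). In these bulk samples more cells of a type and more RNA per cell cannot be told apart, and the same holds for a fall.

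**Figure D3:**
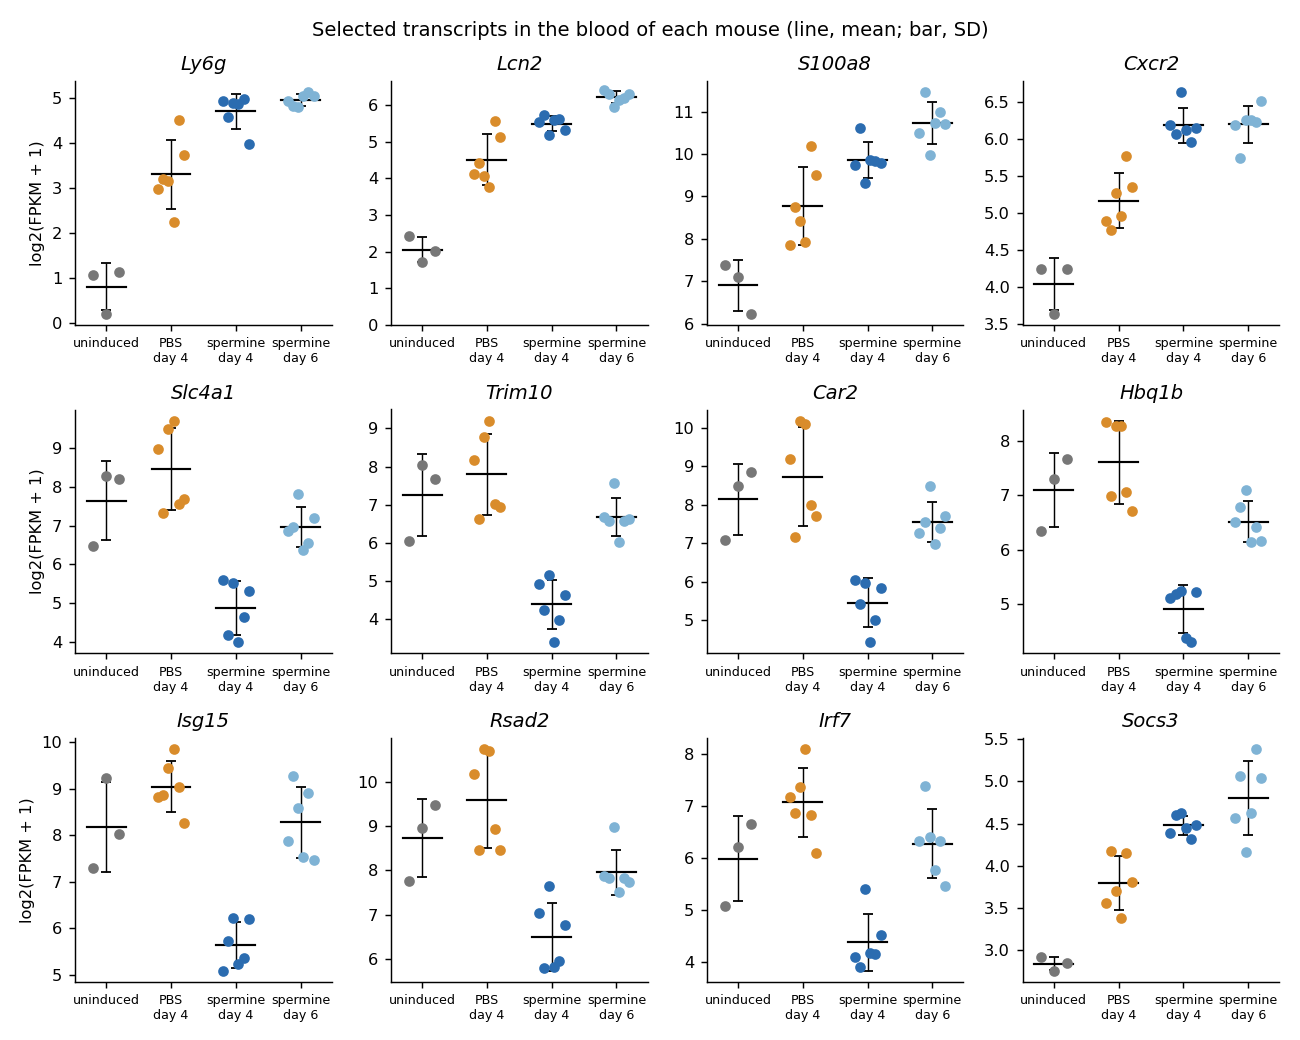
Log2(FPKM + 1) (y axes) of 12 transcripts in each mouse of the uninduced, PBS day 4, spermine day 4 and spermine day 6 groups; points are mice, lines group means and bars SD. Ly6g, Lcn2, S100a8, Cxcr2 and Socs3 are higher in every spermine day 4 mouse than in every uninduced mouse, and Slc4a1, Trim10, Car2, Hbq1b, Isg15 and Rsad2 are lower in every one; Irf7 of 1 spermine mouse reaches the uninduced range.

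Part of the inflammatory monocyte list rose as well. Beside the list counts of this paragraph and the next, 5.47 percent of all genes rose and 3.14 percent fell. In the list of Ly6C-high monocytes, the blood monocytes that enter inflamed tissue, 10 of 16 genes rose, none fell and the median was 1.00. With uninduced mouse 1 left out 5 rose, and with mouse 3 left out 6. Hp, the hemoglobin-binding protein haptoglobin, which neutrophils also express, stood at 25.5, 28.5 and 18.6 FPKM in uninduced and 107 to 180.3 (median 124) FPKM in spermine mice (2.37 ± 0.29). Mgst1, a membrane glutathione transferase, rose by 2.05 ± 0.27, the lipopolysaccharide co-receptor Cd14 by 1.72 ± 0.33 and the matrix proteoglycan Vcan by 1.18 ± 0.25. Of 14 genes of patrolling monocytes, 1 rose and 1 fell, and neither count held without uninduced mouse 3. Among 13 Fc and complement genes 7 rose and none fell. C5ar1, the receptor for the complement fragment C5a, was at 4.39, 4.72 and 3.38 FPKM in uninduced and 13.1 to 20.5 (median 18.5) FPKM in spermine mice (1.82 ± 0.20, adjusted p = 5.08e-08). Fcgr3, an activating receptor for IgG, rose by 1.47 ± 0.21, and the complement proteins C3 and properdin (Cfp) rose by 1.53 ± 0.24 and 1.37 ± 0.21. Mature neutrophils and monocytes share several of these genes, and which of them carried the rise was not tested.

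Of 19 Toll-like receptor pathway genes 5 rose and none fell, or 10 without spermine mouse 2, which had the lowest mean of this list among the spermine mice: Tlr2, which senses bacterial lipoproteins, by 1.45 ± 0.18, Tlr13, which senses bacterial ribosomal RNA, by 1.53 ± 0.21, the kinase Irak4 by 0.60 ± 0.11 and the adaptor Myd88 by 1.22 ± 0.25 among them. In the NF-kB and inflammatory list 8 of 27 rose and none fell, with a median of 0.07 and 11 members below 0. Without uninduced mouse 3 it had 5 higher. Il1rn, the natural antagonist of interleukin 1, rose by 0.90 ± 0.17 and Il1rap, the shared chain of its receptor, by 0.77 ± 0.16. Of 6 NADPH oxidase genes, which make the oxidative burst, 1 rose and none fell. Glycolysis genes rose in 10 of 19 cases with none lower and a median of 0.56. Slc16a3, a lactate exporter, was at 2.32, 2.15 and 1.82 FPKM in uninduced and 7.74 to 11.1 (median 9.48) FPKM in spermine mice, a difference of 1.74 ± 0.19 (adjusted p = 8.67e-08). Hk3, a hexokinase of myeloid cells, rose by 1.36 ± 0.19, Pfkfb4, which makes the activator of phosphofructokinase, by 1.02 ± 0.12 and the pyruvate kinase Pkm by 0.86 ± 0.15. Of 8 eosinophil genes 2 rose, and 1 without any one of the uninduced mice. Ear1, an eosinophil ribonuclease, was listed at 0 in all 3 uninduced mice and at 2.28 to 8.20 (median 4.00) FPKM in the spermine mice; it has near-identical relatives in the mouse genome, between which reads may have been split. The granule protein Prg2 rose by 1.38 ± 0.40 (adjusted p = 0.0218, and 0.0639 without uninduced mouse 2).

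Red cell transcripts fell. Slc4a1, the anion exchanger of the red cell membrane (ENSMUSG00000006574, chromosome 11, 102348824 to 102366203, GRCm38), stood at 88.4, 308 and 292 FPKM in the 3 uninduced mice and at 15.0 to 47.3 (median 31.3) FPKM in the 6 spermine mice. The groups did not overlap and the log2 difference was -2.77 ± 0.58 (adjusted p = 0.00111), or -2.46 without uninduced mouse 2. Trim10, a ubiquitin ligase of late erythroid cells, went from 65.0, 264 and 203 FPKM to 9.58 to 34.6 (median 20.9) FPKM (-2.86 ± 0.55, adjusted p = 0.000437, and 0.0124 without uninduced mouse 2). Car2, a carbonic anhydrase of red cells, went from 136, 358 and 463 FPKM to 20.4 to 64.7 (median 48.9) FPKM (-2.70 ± 0.59, adjusted p = 0.00196). In each of these genes uninduced mouse 1 was the lowest of the 3 uninduced mice and still lay above every spermine mouse.

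Of 41 erythroid genes tested, 26 fell and 1 rose, against 3.14 and 5.47 percent of all genes, and the median was -1.71. By role, the fall took 10 of 12 genes of the red cell membrane and its skeleton (median -1.99), among them the blood group protease Kel (-2.63 ± 0.47). It took 6 of 10 genes of heme synthesis and its iron import (median -1.56), 5 of 6 genes of reticulocyte maturation (-2.02) and 5 of 6 genes of a group made up mostly of red cell enzymes (-2.15). None of 4 erythroid transcription factors was called (-0.19). Slc2a1, the glucose carrier, was the gene that rose (0.67 ± 0.14), and many other cells express it. Without uninduced mouse 2 the list had 18 lower genes, without uninduced mouse 3 it had 9, and under the fixed totals without and with hemoglobin it had 29 and 28. Of the 10 genes of heme synthesis and its iron import, 4 were lower without uninduced mouse 2 and none without mouse 3. Of 7 hemoglobin genes, 2 fell and the median was -1.04. Hbq1b, a theta globin, went from 80.4, 158 and 203 FPKM to 18.5 to 36.8 (median 34.3) FPKM (-2.21 ± 0.42, adjusted p = 0.000386) and Hbb-bt, a beta globin nearly identical in sequence to Hbb-bs, differed by -1.85 ± 0.39, with reads that may have been split between the pair. The share of hemoglobin reads itself, given above, overlapped between the groups.

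The promoters of 2 erythroid genes that fell are shown because they carry AGATAA, the core of the element bound by Gata1, the master regulator of red cell genes. Sequences here and below are from RefSeq (GRCm38.p6), cover 150 bases up to the annotated start, and have the motif on either strand in capitals.
Kel promoter (chr6:41704326-41704475, minus strand): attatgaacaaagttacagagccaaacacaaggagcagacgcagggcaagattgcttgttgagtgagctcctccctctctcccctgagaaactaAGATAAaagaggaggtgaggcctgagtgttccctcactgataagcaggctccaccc
Alas2 promoter (chrX:150547267-150547416, plus strand): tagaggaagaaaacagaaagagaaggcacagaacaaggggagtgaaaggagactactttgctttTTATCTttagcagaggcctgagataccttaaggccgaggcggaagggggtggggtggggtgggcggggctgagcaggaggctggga
In windows of 300 bases (250 before and 50 after the start), AGATAA occurred on either strand in 8 of 26 erythroid genes with a window (30.8 percent), in 3 of 23 mature neutrophil genes and in 12.7 percent of 27025 genes. Alas2, the first enzyme of heme synthesis in red cells, was among the genes that fell. On the log2(FPKM + 1) scale it stood at 13.04, 13.81 and 14.31 in the uninduced mice and at 11.31 to 12.77 in the spermine mice. No gene of heme synthesis and its iron import was called lower without uninduced mouse 3. The AGATAA motif was searched after the values had been seen.

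Several of the genes with the greatest fall are not on the erythroid list. Apol11b, of the apolipoprotein L family, had the greatest of all, from 58.6, 183 and 175 FPKM to 3.87 to 13.1 (median 7.83) FPKM (-3.80 ± 0.71, adjusted p = 0.00029). Diaph3, a formin that builds actin filaments, differed by -2.93 ± 0.46, the protease Ctsf by -2.77 ± 0.48 and the glutathione transferase Gstm5 by -2.61 ± 0.37. Acmsd, an enzyme of tryptophan breakdown, was at 4.48, 15.9 and 10.8 FPKM in uninduced and 0.303 to 0.867 (median 0.453) FPKM in spermine mice (-2.78 ± 0.48). Cyp4b1-ps2 is a pseudogene whose reads may in part belong to its relatives, and it differed by -2.85 ± 0.49. Every one of these 6 genes had its lowest uninduced value in mouse 1, as Slc4a1, Trim10 and Car2 did.

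Most of the interferon-stimulated list was not called, which also held for all genes tested (10810 of 11829 not called). The promoters of 4 of its members are shown because they share the interferon-response motif, GAAA, any 2 bases and GAAA again, while their transcripts moved in different directions: Isg15 and Rsad2 fell, Trim30a rose and Ifit1 was not called.
Isg15 promoter (chr4:156200819-156200968, minus strand): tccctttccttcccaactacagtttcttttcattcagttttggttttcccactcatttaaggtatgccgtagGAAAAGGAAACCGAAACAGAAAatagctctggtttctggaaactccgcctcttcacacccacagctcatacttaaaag
Rsad2 promoter (chr12:26456453-26456602, minus strand): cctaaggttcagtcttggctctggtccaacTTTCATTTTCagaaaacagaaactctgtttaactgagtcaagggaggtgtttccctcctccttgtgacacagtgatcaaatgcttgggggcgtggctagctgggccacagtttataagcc
Ifit1 promoter (chr19:34640739-34640888, plus strand): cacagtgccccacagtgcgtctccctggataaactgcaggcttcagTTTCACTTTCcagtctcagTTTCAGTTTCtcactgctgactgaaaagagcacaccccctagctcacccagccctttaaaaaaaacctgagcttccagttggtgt
Trim30a promoter (chr7:104465194-104465343, minus strand): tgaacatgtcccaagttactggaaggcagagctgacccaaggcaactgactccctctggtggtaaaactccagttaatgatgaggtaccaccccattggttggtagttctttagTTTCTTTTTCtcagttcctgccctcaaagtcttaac
The motif was found on either strand, in windows of 300 bases as above, in 25 of 43 interferon-stimulated genes with a window (58.1 percent), in none of 26 erythroid genes, in 1 of 23 mature neutrophil genes and in 3.99 percent of 27025 genes. The 3 matches in the Isg15 promoter overlap one another.

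Isg15 is a ubiquitin-like protein and a common readout of interferon (ENSMUSG00000035692, chromosome 4, 156199424 to 156200818, GRCm38). It stood at 155, 597 and 261 FPKM in the uninduced mice and at 33.0 to 73.5 (median 45.9) FPKM in the spermine mice, with no overlap (-2.55 ± 0.51, adjusted p = 0.000651, and 0.0235 without uninduced mouse 2). Isg20, an exonuclease that attacks viral RNA, went from 637, 1642 and 1564 FPKM to 159.6 to 550.3 (median 308) FPKM (-2.03 ± 0.43, adjusted p = 0.00146). Rsad2, or viperin, which makes an antiviral nucleotide, went from 214, 492 and 709 FPKM to 55.1 to 198 (median 84.7) FPKM (-2.22 ± 0.57, adjusted p = 0.00868, and 0.113 without uninduced mouse 3). Irf7, the factor that amplifies interferon production, went from 32.5, 73.4 and 99.8 FPKM to 14.0 to 41.3 (median 16.9) FPKM (-1.61 ± 0.47, adjusted p = 0.0245, 0.106 without uninduced mouse 2 and 0.221 without mouse 3). Spermine mouse 3 was the one mouse whose Irf7 reached above the lowest uninduced value.

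These were the only members of the 56 tested that fell, and 2 rose, against 3.14 and 5.47 percent of all genes. Without uninduced mouse 1 there were 4 lower and none higher, without mouse 2 there were 3 lower and 2 higher, and without mouse 3 there were 2 lower and none higher. Without spermine mouse 2 there were 4 lower and 4 higher. The median was 0.18, with 41 members above 0 and 15 below. The members that rose were Ifi204, a DNA sensor of myeloid cells (1.58, 5.70 and 1.31 FPKM against 4.33 to 12.9 (median 8.05) FPKM, 1.37 ± 0.42, adjusted p = 0.0318), and Trim30a, a regulator of Toll-like receptor signalling (0.62 ± 0.20, adjusted p = 0.0486, and 0.2 without uninduced mouse 2). They are named because they complete the count. Ifit1, an RNA-binding antiviral protein, stood at 9.31, 20.6 and 23.9 FPKM and at 6.05 to 29.5 (median 7.52) FPKM (-0.82 ± 0.52, adjusted p = 0.416), where spermine mouse 3 was the highest of all 9. Under the fixed totals without and with hemoglobin the list had 9 and 25 members higher, 4 lower under both, and a median 0.27 and 0.32 above that of all genes. The mean of the list was 3.18, 3.42 and 3.24 in the uninduced mice and 3.04 to 3.99 in the spermine mice, so the groups overlapped, with spermine mouse 3 the highest.

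All 4 members that fell had their lowest uninduced value in mouse 1, which also had the lowest erythroid mean (4.38, against 5.32 and 5.46 in the other uninduced mice and 3.20 to 3.91 in the spermine mice). The 26 fallen erythroid genes moved with them between the groups, and the part of red cell RNA in the fall of Isg15, Isg20, Rsad2 and Irf7 was not tested.

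**Figure D4:**
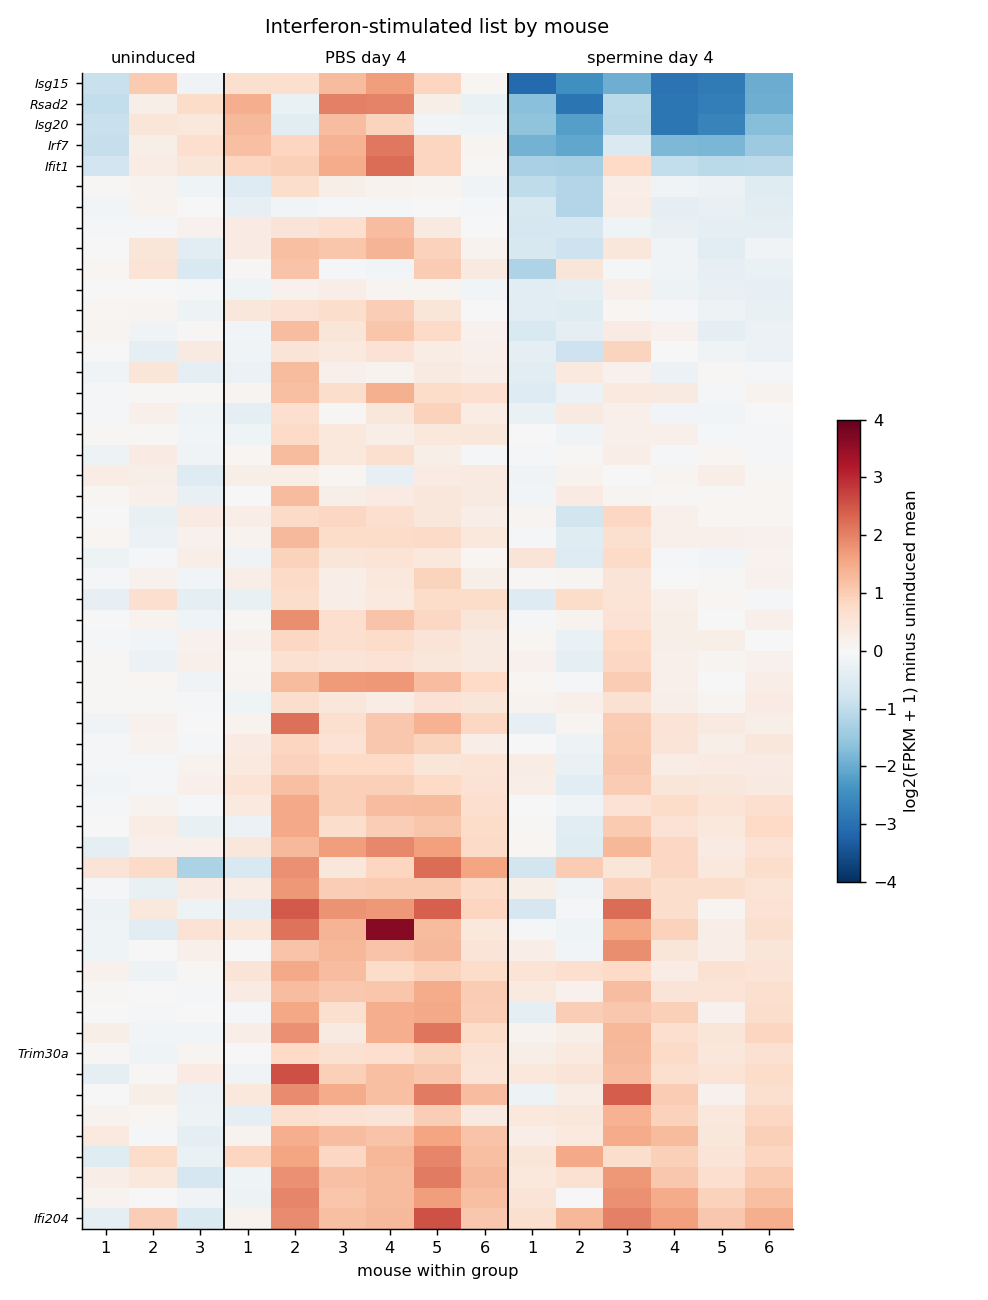
Heat map of the 56 tested interferon-stimulated genes (rows, ordered by the spermine day 4 minus uninduced difference) in the uninduced, PBS day 4 and spermine day 4 mice (columns); colour is log2(FPKM + 1) minus the uninduced mean, blue lower and red higher, and rows are labelled where the text names the gene. Isg15, Rsad2, Isg20 and Irf7 form a blue block at the top right, while 41 of the 56 rows have a spermine mean above the uninduced mean, and spermine mouse 3 is redder than its group.

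The receptor and its kinases did not pass the test. Ifnar1, the gene whose genotype defines the series, stood at 10.3, 8.90 and 8.19 FPKM in uninduced and 6.79 to 9.66 (median 8.74) FPKM in spermine mice (-0.07 ± 0.12, adjusted p = 0.809). Ifnar2 differed by 0.15 ± 0.16, Jak1 by -0.10 ± 0.15, and Tyk2 by -0.03 ± 0.13, all with adjusted p above 0.05, and the signs of Ifnar1, Jak1 and Tyk2 turned under both fixed totals. Of 22 receptor and JAK-STAT genes 2 rose and none fell, against 5.47 and 3.14 percent of all genes. Socs3, an inhibitor of cytokine receptor signalling that STAT3 induces, was at 6.57, 5.78 and 6.22 FPKM in uninduced and 19.0 to 23.6 (median 21.2) FPKM in spermine mice, and every spermine mouse had more than any uninduced one (1.63 ± 0.22, adjusted p = 1.35e-06). Stat3 itself rose by 0.47 ± 0.11 (adjusted p = 0.00357).

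Polyamine genes gave 2 higher and 2 lower of 19 tested, against 5.47 and 3.14 percent of all genes, with a median of -0.03. Arg2, the mitochondrial arginase that supplies ornithine, was at 2.29, 1.40 and 1.76 FPKM in uninduced and 5.05 to 8.78 (median 7.84) FPKM in spermine mice (1.57 ± 0.22, adjusted p = 2.63e-06). Sat1, the acetyltransferase that starts the breakdown of spermine and spermidine, stood at 20.8, 25.6 and 11.7 FPKM and 21.9 to 52.8 (median 31.5) FPKM (0.76 ± 0.24, adjusted p = 0.0436, but 0.442 without uninduced mouse 3 and 0.104 without spermine mouse 2), and its ranges overlapped. Smox, the oxidase that turns spermine into spermidine, went from 58.9, 149 and 139 FPKM to 28.2 to 53.4 (median 34.0) FPKM (-1.54 ± 0.42, adjusted p = 0.0147), and Oaz1, the antizyme that sends ornithine decarboxylase to the proteasome, differed by -1.55 ± 0.38. Neither Smox nor Oaz1 was called without uninduced mouse 3 or without uninduced mouse 2 (for the latter adjusted p = 0.112 and 0.0556), and both had their lowest uninduced value in mouse 1. Odc1, ornithine decarboxylase, and Amd1, which supplies the aminopropyl group, differed by -0.03 ± 0.29 and -0.12 ± 0.16 and were not called, with signs that turned under both fixed totals.

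Of 16 genes of the integrated stress response 2 rose and 3 fell. Beside this and the other list counts of the paragraph, 5.47 percent of all genes rose and 3.14 percent fell. Mthfd2, a mitochondrial folate enzyme, went from 8.26, 8.40 and 18.4 FPKM to 1.57 to 2.91 (median 2.44) FPKM (-1.82 ± 0.49), Ppp1r15a, which restores translation after stress, differed by -1.47 ± 0.35 and the amino acid carrier Slc7a5 by -1.37 ± 0.43. Sesn2, a sensor of leucine, and the factor Cebpb, which also acts in myeloid differentiation, rose by 0.83 ± 0.17 and 1.32 ± 0.35, though Cebpb was not called without uninduced mouse 1 or mouse 3. Without uninduced mouse 3 none of the 3 lower genes was called. Of 21 cell cycle genes 3 fell and none rose, with 1 lower without uninduced mouse 3. Nusap1, which bundles spindle microtubules, went from 20.1, 48.8 and 72.1 FPKM to 3.70 to 12.6 (median 6.81) FPKM (-2.45 ± 0.52, adjusted p = 0.00131), cyclin A2 (Ccna2) differed by -1.54 ± 0.41 and the centromere histone Cenpa by -0.44 ± 0.13, a sign that turned when the fixed total counted hemoglobin. Of 43 nuclear genes of oxidative phosphorylation 5 fell, or 1 without uninduced mouse 2 and 3 without mouse 3, such as the cytochrome oxidase subunits Cox6c (-1.41 ± 0.30) and Cox7b (-1.28 ± 0.33, adjusted p = 0.00873, and 0.0966 without uninduced mouse 2). No gene was called among 43 ribosomal protein, 31 proteasome and 13 mitochondrially encoded genes.

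Some natural killer and B cell genes fell. Of 19 natural killer and cytotoxic genes 5 fell, against 3.14 percent of all genes, and 18 lay below 0: Klrk1, the activating receptor NKG2D, from 2.52, 2.51 and 2.75 FPKM to 0.994 to 2.19 (median 1.36) FPKM (-0.57 ± 0.14, adjusted p = 0.0075), the lectin-like receptors Klre1 (-0.74 ± 0.19), Klrd1 (-0.81 ± 0.24) and Klrc2 (-0.42 ± 0.13), and Eomes, the factor that maintains these cells (-0.50 ± 0.15). The count was 1 without uninduced mouse 1, 2 without mouse 2 and 1 without mouse 3. No member was called lower under either fixed total, where the list's median, -0.57 as deposited, was 0.59 below that of all genes. Of 20 B cell genes 5 fell, against the same 3.14 percent of all genes, and 19 lay below 0. Among the 5 were Cd22, an inhibitory receptor, at -0.46 ± 0.12, the IgE receptor Fcer2a at -0.46 ± 0.13, Cd72 at -0.62 ± 0.19 and the kinase Blk at -0.38 ± 0.12. None was called under the fixed totals, where the sign of these 4 turned when hemoglobin was counted. None was called without uninduced mouse 1, and 1 without mouse 3 or when only the groups compared were fitted. None of 23 T cell genes and none of 19 platelet genes was called.

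The PBS mice of day 4 show which differences remained when the pretreatment was set against PBS, and their comparison with the spermine mice uses no uninduced animal. It shares the 6 spermine mice with the results above, so the values stand side by side and are not independent. It called 314 genes higher (2.65 percent) and 766 lower (6.48 percent) in the spermine mice, together 9.13 percent. Under the fixed totals without and with hemoglobin the median of all genes moved from 0.01 to 0.51 and 0.72 and the share of higher calls from 29.1 percent to 94.0 and 95.9 percent, so directions are given only where both totals keep them or are stated relative to that median. Of the mature neutrophil list 18 of 28 genes were higher in the PBS mice than in the uninduced mice, with a median of 1.09. Over all genes that comparison called 199 higher. Under the fixed totals without and with hemoglobin it called 14 and 5 higher, so these 18 calls cannot all have held there. With only the groups compared in the fit it called 12 higher. In the spermine mice 21 of 28 genes were higher than with PBS and none lower (median 0.96). By list mean, PBS mouse 5 (5.39) lay within the spermine range of 5.28 to 5.61, and the other PBS mice lay below it at 4.04 to 4.81. The 8 tested genes of neutrophil formation had 2 lower, Camp (-1.27 ± 0.28, adjusted p = 0.00181) and Ltf (-1.42 ± 0.28, adjusted p = 0.000405, but 0.06 with the fixed total that counts hemoglobin). Under the fixed totals without and with hemoglobin, 2 and 1 of these 8 were lower and 3 and 4 higher. Of the 6 PBS libraries 3 had a mitochondrial share under 1.2 percent, and with such libraries left out 7 mature neutrophil genes were higher and the median was 0.47. None of the 8 granule and cytosolic antimicrobial genes was then called, S100a8, S100a9, Lcn2 and Retnlg included. Cxcr2 was at 26.2 to 53.5 (median 33.7) FPKM with PBS and 61.1 to 97.9 (median 68.9) FPKM with spermine (1.01 ± 0.17, adjusted p = 3.96e-05), and without such libraries the difference was 0.89 (adjusted p = 0.0029).

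Erythroid genes differed most from PBS. Of 41 tested 33 were lower and none higher, with a median of -2.36, and 30 and 29 were lower under the 2 fixed totals. Without the libraries of low mitochondrial share 28 were lower and the median was -1.57. In the PBS group this left out mice 1, 3 and 4. Their erythroid means were 6.03, 6.28 and 6.34, against 4.83, 5.08 and 4.91 in PBS mice 2, 5 and 6. Slc4a1 stood at 159 to 838 (median 355) FPKM in the PBS mice against 15.0 to 47.3 (median 31.3) FPKM in the spermine mice (-3.59 ± 0.47, adjusted p = 2.25e-06). The PBS mice of low mitochondrial share had the highest Slc4a1 values of their group. PBS mice themselves had no erythroid gene called against uninduced mice, where 1.68 percent of all genes were called higher and 0.414 percent lower, together 2.1 percent. Those 199 and 49 genes became 12 and 5 when only the groups compared were fitted, and 14 and 29 or 5 and 11 under the fixed totals. Of the interferon-stimulated genes 12 were lower than with PBS and none higher (median -0.43), with 7 and 5 lower and 3 and 15 higher under the fixed totals. Without the libraries of low mitochondrial share 15 were lower and none higher (median -0.67). The list's median stayed below that of all genes under the fixed totals, by 0.35 and 0.31, although its own sign turned. Isg15 was at 306 to 927 (median 496) FPKM with PBS (-3.42 ± 0.41, adjusted p = 1.41e-06), Rsad2 at 349 to 1700.4 (median 820.5) FPKM (-3.07 ± 0.46), Irf7 at 67.6 to 272 (median 129) FPKM (-2.70 ± 0.39) and Isg20 at 867 to 2893 (median 1629.9) FPKM (-2.47 ± 0.35), and in all 4 genes no spermine mouse reached the lowest PBS mouse. Ifi204 and Trim30a, by contrast, differed from PBS by 0.01 ± 0.34 and 0.03 ± 0.17, with adjusted p = 0.996 and 0.952, although Trim30a was called higher under both fixed totals and Ifi204 under the total with hemoglobin. Socs3 and Arg2 were higher than with PBS, by 0.68 ± 0.18 (adjusted p = 0.00824, but 0.244 without the low mitochondrial libraries) and 0.94 ± 0.18 (adjusted p = 0.000252), and Smox and Oaz1 were lower, with differences of -2.20 ± 0.34 and -2.08 ± 0.31.

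Between day 4 and day 6 of the spermine groups, 70 genes were higher on day 6 (0.592 percent) and 3 lower (0.0254 percent), together 0.617 percent. The total of 73 moved with single mice, to 22 without spermine mouse 5, 26 without mouse 4, 49 without mouse 1 and 196 without mouse 2 of day 4. Of 41 erythroid genes 8 were among the higher ones. Slc4a1 reached 82.6 to 225 (median 120.2) FPKM on day 6 (2.09 ± 0.47, adjusted p = 0.0233) and Trim10 64.1 to 188 (median 96.8) FPKM (2.29 ± 0.45). Isg15 reached 176 to 622 (median 309) FPKM (2.65 ± 0.41, adjusted p = 0.000952) and Irf7 42.9 to 166 (median 78.8) FPKM (1.90 ± 0.39), so both were higher in every day 6 mouse than in every day 4 mouse. Of 28 mature neutrophil genes 1 was higher on day 6 and none lower, and Ly6g stood at 26.8 to 33.8 (median 30.4) FPKM (0.26 ± 0.37, adjusted p = 0.807). The median day 6 minus day 4 difference was 0.69 for the 8 granule and cytosolic antimicrobial genes, none of them called. For the 13 surface receptors it was 0.26. Among the granule genes, Lcn2 stood at 5.18 to 5.74 on day 4 and at 5.95 to 6.42 on day 6 in log2(FPKM + 1), without overlap.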

How the data were processed

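The deposited file gives the authors' FPKM, which is reads scaled by gene length and library size, for 54532 genes and 40 libraries. The submitters' processing notes name GRCm38 (mm10) and, with no role stated, HISAT2 2.0.5, fastp, DESeq2 1.20.0, CASAVA 1.8 and featureCounts 1.5.0-p3. Gene identifiers matched the supplied gene name table in 99.8 percent of cases, and coordinates are those of the deposited file. The deposited FPKM proved to carry a median-of-ratios scaling, and whole reads came back for 100 percent of 686936 nonzero values (within 0.001 read). Libraries held 9156431 to 14058050 reads, which limits the precision of low genes. Strand use in counting is not stated, so overlapping genes cannot be told apart.

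The main test was limma 3.58.1 in R 4.3.3 (moderated by mean expression) on log2(FPKM + 1) of the 11829 genes that reached 1 FPKM in 3 or more libraries. One model covered 8 groups, its SE are those given, and p-values were adjusted by Benjamini-Hochberg within each contrast, with 0.05 as the threshold. Library measures were compared by exact permutation of mice. The rule for named genes took the 12 greatest rises and falls at a mean of 5 FPKM or more, without predicted genes, receptor segments and sex-linked markers, the 4 members of smallest p in each of 35 lists, and 13 set genes; others are said to be chosen by their values or complete a count. Groups, the 35 lists (721 genes) and rules were chosen with earlier results of these data known, so list counts are descriptions. The alternatives replaced the scaling (2 fixed totals), the pseudocount (0.1), the filter (none), the groups in the model (only those compared), the weights (arrayWeights, voom on recovered reads) or the design (replicate block), or left out 7 libraries of low mitochondrial share or each of the 9 mice in turn. Some genes that the rule names are not reported here by name. The procedure was tested on simulated data.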

Additional observations from a re-analysis of the deposited data

Results flagged for a closer look

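Of 131 sets of 6 spermine mice examined, 19 held a mouse that stood apart from the other 5 by Dixon's criterion. Chance gives about 1 in 20 for independent, normally distributed sets. These sets are values of the same 6 mice and are not independent, so 19 of 131 cannot be judged against that rate. Spermine mouse 2 was the high one for Wfdc17 (117.8 FPKM, others 33.64 to 60.23), S100a8 (1563 FPKM), Retnlg (736.5 FPKM), Hp (180.3 FPKM), Cd14 (7.572 FPKM) and Cox7b (20.3 FPKM). It was also high in the list means (log2) of ribosomal protein (7.916, others 6.549 to 6.912), oxidative phosphorylation (3.928), proteasome (3.613) and basophil and mast cell genes (0.8113), and low in that of the Toll-like receptor genes (2.308, others 2.61 to 2.788). Spermine mouse 3 was the high one for Irf7 (41.32 FPKM), Ifit1 (29.48 FPKM, others 6.054 to 7.921), Cxcr2 (97.87 FPKM), Irak4 (6.25 FPKM), Il1rap (2.66 FPKM) and Sesn2 (5.93 FPKM). Spermine mouse 4 was high for Ltf (3.409 FPKM), and spermine mouse 6 was low in the neutrophil formation mean (1.976, others 2.211 to 2.281).

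The day 4 change from uninduced blood differed between spermine and PBS mice, by the direct test of the groups in limma, for 1080 genes. Among the 24 genes with the greatest changes 20 were called in that test, of which 18 are given here. The lower ones were Apol11b (-5.159), Slc4a1 (-3.588), Trim10 (-3.403), Car2 (-3.281), Kel (-3.261), Cyp4b1-ps2 (-3.025), Ctsf (-2.969), Diaph3 (-2.936), Gstm5 (-2.862) and Acmsd (-2.735). The higher ones were Ly6g (1.4), Ifitm1 (1.34), Lrg1 (1.089), S100a8 (1.086), Retnlg (1.038), S100a9 (1.024), Steap4 (0.9983) and Lcn2 (0.9872), all as log2 differences from PBS. Without the libraries of low mitochondrial share all 10 lower genes and, of the 8 higher ones, Ly6g kept their call.

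Outside the main measurement, uninduced mouse 2 had 862 reads of Y-linked genes where the other 39 libraries had none.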

How the results depend on the processing

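Of 83 called genes among the 92 followed, 56 kept their call in all 18 alternatives; most losses came without uninduced mouse 3 (23 genes), 1 (14) or 2 (12). Against uninduced blood the fixed totals without and with hemoglobin gave 1467 and 3709 genes higher and 1807 and 3982 in all, as the median of all genes moved. Leaving out 1 mouse gave 406 to 662 higher, 111 to 398 lower and 517 to 1035 in all. Against PBS the fixed totals gave 8331 and 9555 genes, leaving out libraries of low mitochondrial share 495, and leaving out 1 spermine mouse 907 to 1056. In these 2 comparisons counts in all under voom, the other pseudocount and no filter stayed within 1.5 times of the main ones. PBS against uninduced mice (248 genes) gave 43 and 16 under the fixed totals, 17 in the fit of only the groups compared, 381 under arrayWeights, and 132 and 114 without uninduced mice 1 and 3; its lower calls went from 49 to 114 with no filter. Day 6 against day 4 (73 genes) gave 258 and 185 under the fixed totals, 143 with the other pseudocount, 36 with no filter, 254 in the fit of only the groups compared, 808 under arrayWeights, 200 under voom, 51 with the block, 233 without libraries of low mitochondrial share and 22 to 196 without 1 spermine day 4 mouse; day 6 mice were not left out singly. Some of these settings had fewer samples or a moved median, and the cause of the shifts was not tested.

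Signs turned for genes near 0. Under the totals without and with hemoglobin the log2 differences were 0.3003 and 0.5866 for Ifnar1, 0.3014 and 0.6101 for Jak1, 0.3212 and 0.5901 for Tyk2, 0.3829 and 0.6953 for Odc1, 0.2568 and 0.5405 for Amd1, and 0.01241 and 0.3166 for Blk. With hemoglobin alone they were 0.2494 for Cd22, 0.2579 for Fcer2a, 0.01245 for Cd72 and 0.08051 for Cenpa. Leaving out 1 mouse at a time gave -0.1401 to 0.01083 for Ifnar1, -0.006287 to 0.2472 for Ifnar2, -0.1414 to 0.0861 for Tyk2, -0.1306 to 0.5326 for Camp, -0.2547 to 0.133 for Odc1 and -0.2511 to 0.1071 for Amd1. Without the libraries of low mitochondrial share, of which uninduced mouse 3 was the only one among these 9, the values were 0.01419 for Tyk2, -0.1306 for Camp, 0.133 for Odc1 and 0.1071 for Amd1. Odc1 was 0.06841 under arrayWeights.

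Same-numbered mice of the spermine and uninduced groups had deviations correlated at -0.191, 0.386 and 0.341, so the numbers were not taken to pair them. With the replicate number as a block 995 genes were called against uninduced and 1062 against PBS. Depth limits the low genes, most of all in the uninduced mice.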
